A study of Mus musculus with 8 samples.

Results

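The G1 phase machinery was followed through 10 of its genes in 8 bulk RNA-seq libraries of mouse immortalized granulocyte-macrophage progenitors (iGMPs). The genes were taken by name: the D-type cyclins Ccnd1, Ccnd2 and Ccnd3, the E-type cyclins Ccne1 and Ccne2, the kinases Cdk4 and Cdk6, the inhibitors Cdkn1b and Cdkn2c, and the retinoblastoma gene Rb1. They are 10 of the 34199 genes counted, and all 10 were among the 13080 genes that passed the filter on low counts.

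The cells carried a lysozyme-driven GFP reporter on a C57Bl/6 background and were immortalized by HOXA9 fused to the ligand-binding domain of a mutant estrogen receptor, so that HOXA9 is active only while estradiol is present. Uninduced cells, the 0 h control (t0), grew with estradiol at 150 ng/ml and stem cell factor. In CAF-1 OFF cells, 48 h of 500 µM IPTG induced an shRNA against Chaf1b, the p60 subunit of the histone chaperone CAF-1, with HOXA9 left active. IPTG control cells were also treated with IPTG for 48 h, and the labels name neither an shRNA nor a dose for them. HOXA9 OFF cells were washed and grown for 48 h without estradiol, so loss of HOXA9 activity and loss of estradiol itself cannot be told apart. Each group had 2 libraries. The iGMPs are clonal lines. The study's supplement mentions a pair of independent sub-clones for its RNA-seq tracks, but neither it nor the labels tie a library to a sub-clone, a culture or a replicate number, so p-values measure the spread between these libraries, which may be between sub-clones or technical.

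The D-type cyclins are induced by growth factor signals and activate CDK4 and CDK6, which begin to phosphorylate the retinoblastoma protein and so release E2F transcription factors. E2F then drives genes of DNA replication and the E-type cyclins, which activate CDK2 and complete the passage into S phase. CDKN2C (p18, an INK4 protein) binds CDK4 and CDK6 directly, whereas CDKN1B (p27, a CIP/KIP protein) blocks cyclin E-CDK2 and also sits in cyclin D-CDK4 complexes. In myeloid progenitors, cyclin D3 and CDK6 are known for their part in expansion, and the inhibitors for their part in the exit from the cycle that goes with terminal differentiation.

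In short, CAF-1 OFF cells held more mRNA of Ccnd3, Cdkn2c, Cdkn1b and Rb1 and less of Cdk4 than uninduced cells, while the estimates for Ccnd2, Ccne1, Ccne2 and Cdk6 differed by less than 1.5-fold and were not called. HOXA9 OFF cells also held more Ccnd3, Cdkn1b and Rb1, but less Ccnd2, Cdk4, Cdk6, Ccnd1 and Ccne2. All calls in CAF-1 OFF, and those of Ccnd1 and Ccne2 in HOXA9 OFF, depended on single libraries. Cdkn2c was the inhibitor with the larger difference in CAF-1 OFF cells and Cdkn1b the one with the larger difference in HOXA9 OFF cells. None of the 10 genes passed the threshold in IPTG control against uninduced cells, which differ by 48 h of culture as well as by IPTG.

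Promoter sequences were at hand for 6 of the 10 genes, in 8 windows of 250 bases that end at an annotated start (RefSeq, build GRCm38.p6). The windows of 4 genes that moved are shown, as the DNA in front of the mRNAs whose levels differed; the first is that of Cdk4 and the next 2 are the alternative starts of Ccnd3. Cdkn2c also has 2 windows, of which the upstream start is shown and the other, at chr4:109665373-109665622, held none of the letters searched. Capitals mark matches, on either strand, to any of 4 sets of letters: E2F (TTTCCCGC, TTTCGCGC, TTTGCCGC or TTTGGCGC), ETS (CCGGAAG), E-box (CACGTG) and FOXO (TGTTTAC). No matches to different sets overlapped.
Cdk4, plus strand, chr10:127063285-127063534: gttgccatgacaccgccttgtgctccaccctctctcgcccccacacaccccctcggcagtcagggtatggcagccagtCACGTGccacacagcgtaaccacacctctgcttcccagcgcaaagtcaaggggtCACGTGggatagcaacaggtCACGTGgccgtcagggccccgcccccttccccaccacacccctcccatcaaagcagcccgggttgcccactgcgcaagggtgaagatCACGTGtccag
Ccnd3, first start, plus strand, chr17:47504801-47505050: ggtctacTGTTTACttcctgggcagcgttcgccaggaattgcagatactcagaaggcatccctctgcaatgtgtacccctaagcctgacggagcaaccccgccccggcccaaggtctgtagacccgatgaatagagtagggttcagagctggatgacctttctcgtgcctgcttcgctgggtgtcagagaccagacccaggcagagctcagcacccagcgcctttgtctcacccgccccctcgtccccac
Ccnd3, second start, plus strand, chr17:47593217-47593466: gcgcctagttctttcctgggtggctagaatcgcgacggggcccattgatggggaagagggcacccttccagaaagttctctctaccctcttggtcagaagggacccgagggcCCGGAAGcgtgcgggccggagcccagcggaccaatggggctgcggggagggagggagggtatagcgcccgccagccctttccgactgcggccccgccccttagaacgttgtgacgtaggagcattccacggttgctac
Cdkn1b, plus strand, chr6:134920151-134920400: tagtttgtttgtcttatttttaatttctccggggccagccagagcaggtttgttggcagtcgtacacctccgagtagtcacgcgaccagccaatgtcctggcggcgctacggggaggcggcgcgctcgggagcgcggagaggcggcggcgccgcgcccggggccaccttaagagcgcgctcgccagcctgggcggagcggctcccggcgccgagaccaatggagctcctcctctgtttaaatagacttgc
Cdkn2c, minus strand, chr4:109666757-109667006: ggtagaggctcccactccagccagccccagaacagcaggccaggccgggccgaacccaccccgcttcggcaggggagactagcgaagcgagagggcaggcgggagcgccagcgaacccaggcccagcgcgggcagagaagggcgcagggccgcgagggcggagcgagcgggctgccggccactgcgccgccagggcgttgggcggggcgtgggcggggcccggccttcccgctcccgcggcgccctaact
The Cdk4 window held 4 E-box matches, beginning 172, 118, 98 and 11 bases before the start, and the Cdk6 window held 1, at 220 bases. Among 32851 mouse promoters of this length, 6.02% held an E-box match. The first Ccnd3 window held a FOXO match 243 bases before its start, against 3.17% of all promoters, and the second held an ETS match at 138 bases, against 6.91%. None of the 8 windows held the E2F letters, which 1.86% of all promoters did. The E-box and FOXO letters were searched after the windows had been read, and a match is a description of letters, not a binding site.

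In the mm9 build to which the reads were aligned, with the GENCODE vM1 annotation, all 10 are protein-coding genes on 7 chromosomes. The annotation used for the counts is not given and may differ from it. The D-type cyclins lie at chr7:152115836-152125774 (Ccnd1), chr6:127075797-127101066 (Ccnd2) and chr17:47642000-47736632 (Ccnd3), and the E-type cyclins at chr7:38883003-38892553 (Ccne1) and chr4:11118498-11131926 (Ccne2). The kinases lie at chr10:126500590-126504976 (Cdk4) and chr5:3343893-3523218 (Cdk6), the inhibitors at chr6:134870419-134875531 (Cdkn1b) and chr4:109333481-109339794 (Cdkn2c), and Rb1 at chr14:73583480-73725629. Besides the overlaps named with the results, 818 exon bases of Ccnd1 are shared with Oraov1, 609 of Ccne2 with Ints8 and 60 of Cdk6 with Gm17590, all on the other strand. Oraov1 and Ints8 were called in neither CAF-1 OFF nor HOXA9 OFF, and Gm17590 held 0 to 2 counts per library. Of the 50-base windows along the longest transcripts, 2.1% of those of Cdk4 and 2.88% of those of Cdk6 occur elsewhere in the genome.

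The libraries held 14044284 to 22423837 gene counts. Levels are given in CPM, the counts scaled to a common library size after TMM correction, on which 3 counts correspond to 0.128 to 0.212 CPM. Replicates differed by more than sampling noise in all 4 groups, with a chi-square per degree of freedom of 16.6 to 78.2, the highest in HOXA9 OFF, and a share of 14.6% of uniquely aligned reads outside genes set IPTG control replicate 1 apart from the other 7 libraries (5.30% to 7.79%). Chaf1b, the targeted gene, stood at 96.8 and 100.3 CPM in uninduced, 95.1 and 101.7 in IPTG control, 18.7 and 9.72 in CAF-1 OFF and 48.3 and 41.0 in HOXA9 OFF. Progenitor markers (7 genes: Cd34, Kit, Flt3, Mpo, Elane, Prtn3, Ctsg) were detected in every group and summed to 10666 to 14547 CPM in uninduced, 10881 to 13897 in IPTG control, 15795 to 15825 in CAF-1 OFF and 5566 to 7561 in HOXA9 OFF. In HOXA9 OFF 4 of the 7 were called lower, Flt3 (245 and 349.6 CPM in uninduced, 9.28 and 2.43 in HOXA9 OFF), Cd34, Ctsg and Kit, and the median log2 difference of the list was -1.78. In CAF-1 OFF 1 was called higher, Elane, and none lower, and 4 of the 7 differences were upward. Mpo, which was not called there, was the largest part of each sum. It stood at 6449 and 3988 CPM in uninduced and 7749 and 7807 in CAF-1 OFF. Over all tested genes, 22.1% were called lower in HOXA9 OFF and 10.5% higher in CAF-1 OFF, so 1 of 7 is near the background.

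Markers of other blood cells moved with the groups. Their counts are to be read beside all tested genes, where CAF-1 OFF had 10.5% higher and 3.5% lower calls against uninduced, and HOXA9 OFF had 25.2% and 22.1%. All 6 neutrophil markers were called higher in HOXA9 OFF and 4 of 6 in CAF-1 OFF, and their summed level was 36.3 to 50.4 CPM in uninduced, 36.5 to 54.7 in IPTG control, 176 to 260.5 in CAF-1 OFF and 5734 to 8414 in HOXA9 OFF. Macrophage markers summed to 23.4 to 46.2 CPM in uninduced, 21.3 to 47.6 in IPTG control, 41.3 to 66.4 in CAF-1 OFF and 961 to 1418 in HOXA9 OFF; Marco was at or under 3 counts in every group. Of the 4 macrophage markers tested out of 6, all 4 were called higher in HOXA9 OFF and 1 in CAF-1 OFF. The HOXA9 OFF libraries stood apart from each other on some of these markers, C1qb at 0.434 and 120.8 CPM and the megakaryocyte markers Ppbp at 0.977 and 15.2 and Pf4 at 1.25 and 20.8. Mast cell or basophil markers (2 of 4 called higher in CAF-1 OFF, 1 called lower in HOXA9 OFF) reached 656 to 1043 CPM in CAF-1 OFF against 148 to 199 in uninduced, 139.8 to 193 in IPTG control and 164 to 222 in HOXA9 OFF. The lower call was Mcpt8, at 34.4 and 29.5 CPM in uninduced and 7.38 and 5.95 in HOXA9 OFF. Megakaryocyte markers (3 of 5 called higher in each OFF group) summed to 23.6 to 25.2 CPM in uninduced, 26.6 to 29.3 in IPTG control, 189 to 217 in CAF-1 OFF and 128 to 138 in HOXA9 OFF, with Gp1bb at or under 3 counts throughout. Erythroid markers summed to at most 22.8 CPM and lymphoid markers to at most 17.2 CPM in any library, with Hba-a1, Hbb-b1, Cd3e and Ms4a1 at or under 3 counts in every group. In CAF-1 OFF, 2 erythroid markers and 1 lymphoid marker were called higher, and in HOXA9 OFF 1 erythroid marker was higher, and 1 lymphoid marker higher and 1 lower. In bulk RNA, fewer cells of a type and less RNA per cell cannot be told apart, and the part of these cell types in the results that follow was not tested.

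**Figure D1:**
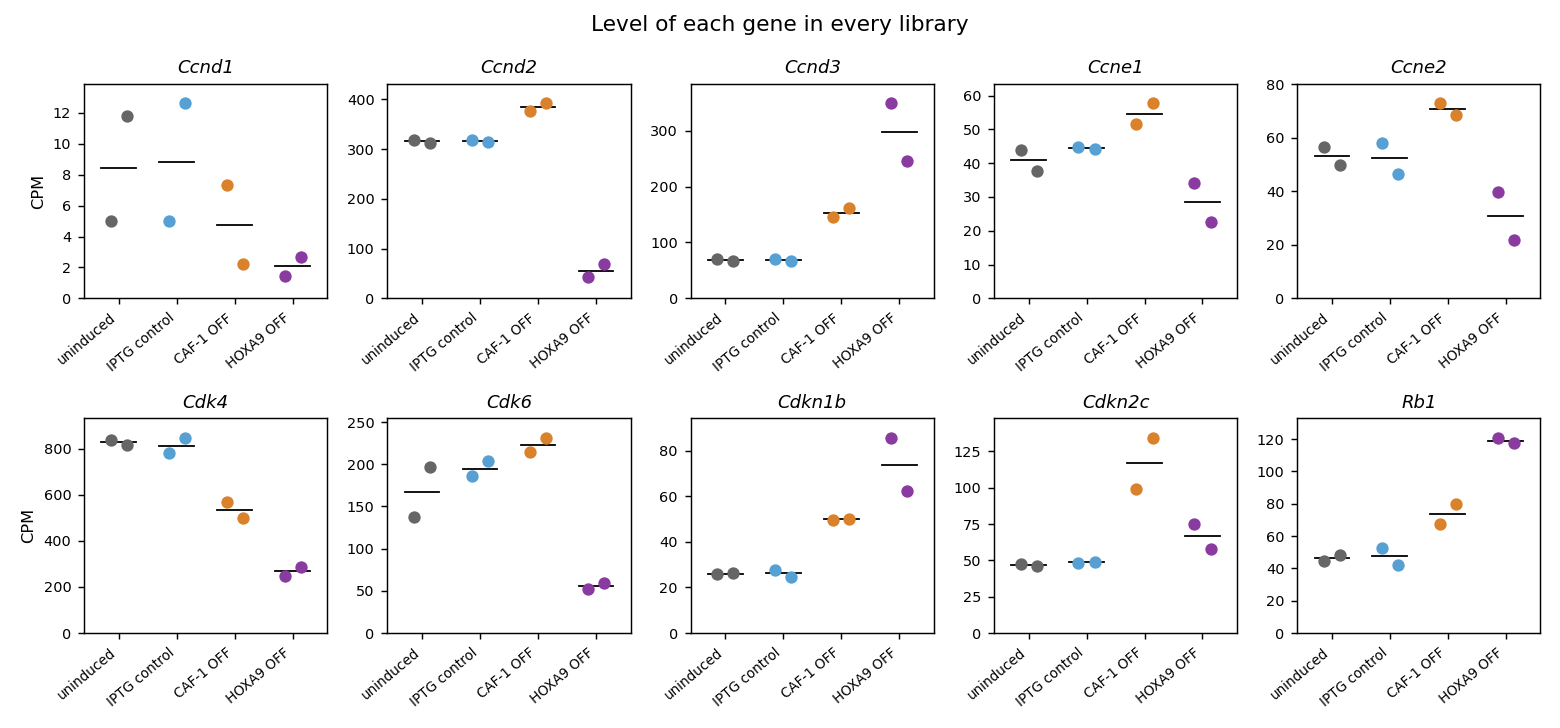
Level of each of the 10 genes in CPM (vertical axis, from 0, with a scale of its own per gene) in the 8 libraries, by group (horizontal axis). Points are libraries and the black bar is the mean of the group. Ccnd3 climbs from 67.3 to 71.2 CPM in both control groups to 146 and 161 in CAF-1 OFF and 349.6 and 246 in HOXA9 OFF, whereas Ccnd2 is high in all groups but HOXA9 OFF.

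The D-type cyclins moved in different directions. Ccnd2, the main D-type cyclin of uninduced iGMPs, stood at 318 and 313 CPM in uninduced cells, 318 and 314 in IPTG control, 377 and 392 in CAF-1 OFF and 42.3 and 68.8 in HOXA9 OFF. The HOXA9 OFF libraries lay far below the other 6, which spanned a narrow range. Ccnd2 fell by 2.51 on the log2 scale in HOXA9 OFF against uninduced (SE 0.21, edgeR quasi-likelihood FDR = 5.07e-05), or 5.68-fold. In CAF-1 OFF the difference was 0.29 (95% confidence interval -0.17 to 0.74, FDR = 0.327), so an increase of 1.5-fold was not excluded by the interval.

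Ccnd3 took the opposite course in HOXA9 OFF. Its level was 70.5 and 67.3 CPM in uninduced, 71.2 and 67.4 in IPTG control, 146 and 161 in CAF-1 OFF and 349.6 and 246 in HOXA9 OFF, with no overlap between the control libraries and either OFF group. Such a gap was common: 68.3% of all tested genes did not overlap between CAF-1 OFF and uninduced, and 78.1% between HOXA9 OFF and uninduced. The log2 fold change against uninduced was 1.16 in CAF-1 OFF (SE 0.16, FDR = 0.00612) and 2.11 in HOXA9 OFF (SE 0.17, FDR = 4.08e-05), that is 2.23-fold and 4.33-fold. A share of 17.8% of the 50-base windows of its longest transcript also occurs elsewhere in the mm9 genome, and the annotated copy Ccnd3-ps held 0 to 2 counts per library. Reads that align to both may be counted for neither, so these counts do not show how many reads Ccnd3 lost. The exons of Ccnd3 also share 353 bases with Bysl on the other strand, which fell by 1.08 in HOXA9 OFF while Ccnd3 rose.

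Ccnd1 was scarce, and its replicates lay far apart. It stood at 5.03 and 11.8 CPM in uninduced, 5.02 and 12.6 in IPTG control, 7.32 and 2.20 in CAF-1 OFF and 1.47 and 2.68 in HOXA9 OFF, from counts of 27 to 276. The CAF-1 OFF libraries fell on either side of the lower uninduced library, and the log2 difference was -0.82 (95% confidence interval -2.42 to 0.78, FDR = 0.425). In HOXA9 OFF it was called lower (log2 -2.02, SE 0.72, FDR = 0.0442), but the call was lost without uninduced replicate 2 (-1.28, FDR = 0.246), HOXA9 OFF replicate 1 (-1.65, FDR = 0.158) or HOXA9 OFF replicate 2 (-2.52, FDR = 0.0588).

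Per kilobase of longest transcript, the 3 D-type cyclins summed to 90.6 and 89.9 CPM per kb in uninduced, 90.8 and 90.4 in IPTG control, 137 and 146 in CAF-1 OFF, and 173 and 129 in HOXA9 OFF. The sums of both OFF groups thus exceeded those of both control groups, while the makeup differed. Ccnd2 supplied 61.4% ± 0.423 (SD, n = 2) of the sum in uninduced cells, 61.2% ± 0.319 in IPTG control, 47.7% ± 0.703 in CAF-1 OFF and 6.80% ± 3.57 in HOXA9 OFF. Ccnd3 supplied 36.1% ± 1.01, 36.2% ± 1.28, 51.3% ± 1.43 and 92.8% ± 3.80 in the same order, and Ccnd1 at most 3.74% in any library. With the union of annotated exons as length, the CAF-1 OFF shares were 49.3% for Ccnd2 and 49.7% for Ccnd3, with Ccnd2 ahead in CAF-1 OFF replicate 1 (49.8% against 48.7%) and Ccnd3 in replicate 2 (50.7% against 48.9%). Neither length was corrected for windows that occur elsewhere in the genome, 17.8% for Ccnd3 and 0% for Ccnd2.

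**Figure D2:**
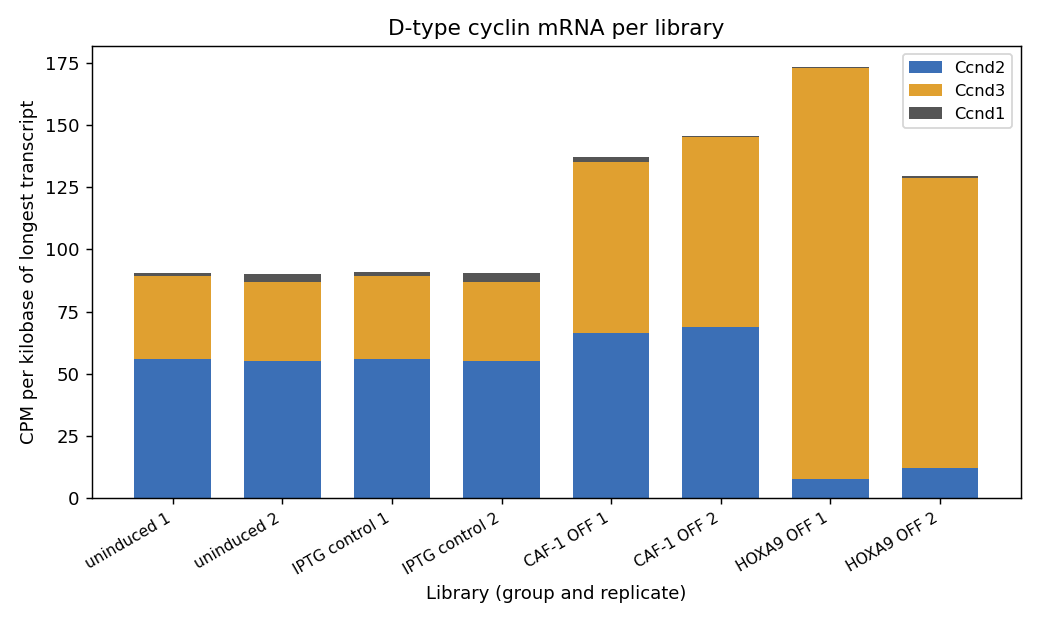
Stacked bars, from 0, of the level of Ccnd2, Ccnd3 and Ccnd1 in CPM per kilobase of longest transcript (vertical axis) in each of the 8 libraries (horizontal axis). The 4 control bars reach 89.9 to 90.8 and are mostly Ccnd2, the CAF-1 OFF bars reach 137 and 146 in near equal parts of Ccnd2 and Ccnd3, and the HOXA9 OFF bars reach 173 and 129 and are mostly Ccnd3.

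The kinases that the D-type cyclins activate fell in HOXA9 OFF and parted in CAF-1 OFF. Cdk4 was the most abundant of the 10 mRNAs per kilobase in uninduced, IPTG control and CAF-1 OFF cells, and stood at 839 and 817 CPM in uninduced, 779 and 846 in IPTG control, 567 and 499 in CAF-1 OFF and 247 and 287 in HOXA9 OFF. Both OFF groups lay below all 4 control libraries, and HOXA9 OFF below CAF-1 OFF. Cdk4 fell by 0.64 on the log2 scale in CAF-1 OFF (SE 0.12, FDR = 0.0139) and by 1.63 in HOXA9 OFF (SE 0.12, FDR = 3.55e-05). Tspan31, which shares 604 exon bases with Cdk4 on the other strand, was not called in CAF-1 OFF (log2 -0.28, FDR = 0.175) or in HOXA9 OFF (log2 0.12, FDR = 0.467).

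Cdk6 stood at 137 and 196 CPM in uninduced, 186 and 203 in IPTG control, 214 and 231 in CAF-1 OFF and 51.7 and 59.1 in HOXA9 OFF. The uninduced libraries differed more from each other than those of the other groups did, and HOXA9 OFF lay below all others. In HOXA9 OFF it fell by 1.59 on the log2 scale (SE 0.17, FDR = 0.000171), or 3.01-fold. In CAF-1 OFF the difference was 0.41 (95% confidence interval 0.03 to 0.80, FDR = 0.116) and passed only without uninduced replicate 2 (0.69, FDR = 0.0438). Against IPTG control it was 0.19 (FDR = 0.441).

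Per kilobase, Cdk4 and Cdk6 together came to 448.0 ± 3.63 CPM per kb (SD, n = 2) in uninduced, 447.9 ± 26.4 in IPTG control, 319 ± 20.1 in CAF-1 OFF and 144.9 ± 15.1 in HOXA9 OFF. Cdk4 exceeded Cdk6 11.1-fold and 7.56-fold in the uninduced libraries, 7.62-fold and 7.57-fold in IPTG control, 4.81-fold and 3.92-fold in CAF-1 OFF and 8.70-fold and 8.83-fold in HOXA9 OFF. The CAF-1 OFF ratios were the lowest of the 8 libraries. The annotated exons of Cdk4 cover 3249 bases in union against 2053 in its longest transcript, and with union lengths, an alternative chosen after seeing the data, the ratios were 7.01 and 4.78 in uninduced, 4.82 and 4.78 in IPTG control, 3.04 and 2.48 in CAF-1 OFF and 5.49 and 5.58 in HOXA9 OFF, again lowest in CAF-1 OFF. The summed D-type cyclin mRNA, divided by the summed kinase mRNA of the same library, was 0.203 and 0.200 in uninduced, 0.212 and 0.194 in IPTG control, 0.412 and 0.478 in CAF-1 OFF and 1.29 and 0.832 in HOXA9 OFF. With union lengths this ratio was 0.280 to 0.306 in the 4 control libraries, 0.573 and 0.654 in CAF-1 OFF and 1.81 and 1.17 in HOXA9 OFF. These are ratios of mRNA per length, not of protein.

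Both inhibitors were higher in CAF-1 OFF, and Cdkn1b in HOXA9 OFF as well. Cdkn1b stood at 25.9 and 26.3 CPM in uninduced, 27.8 and 24.7 in IPTG control, 49.6 and 50.2 in CAF-1 OFF and 85.6 and 62.1 in HOXA9 OFF. The 4 groups fell into 3 steps with no overlap between controls, CAF-1 OFF and HOXA9 OFF. Of all tested genes, 68.3% likewise did not overlap between CAF-1 OFF and uninduced, and 78.2% between the OFF groups. Its log2 fold change was 0.94 in CAF-1 OFF (SE 0.16, FDR = 0.0109) and 1.5 in HOXA9 OFF (SE 0.16, FDR = 0.000168).

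Cdkn2c stood at 47.3 and 46.3 CPM in uninduced, 48.5 and 49.0 in IPTG control, 99.2 and 134 in CAF-1 OFF and 75.3 and 57.9 in HOXA9 OFF. Here CAF-1 OFF, and not HOXA9 OFF, held the highest libraries. It rose by a log2 fold change of 1.32 in CAF-1 OFF (SE 0.18, FDR = 0.00568), or 2.49-fold, the largest called difference among the 10 genes in that comparison. In HOXA9 OFF the difference was 0.51 (95% confidence interval 0.10 to 0.91, FDR = 0.0376) and stayed under the 1.5-fold threshold, but it was called without HOXA9 OFF replicate 2 (0.69, FDR = 0.0131).

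Set against their partners per kilobase, Cdkn2c mRNA was 0.0430 and 0.0416 of the summed Cdk4 and Cdk6 mRNA in uninduced, 0.0458 and 0.0425 in IPTG control, 0.120 and 0.178 in CAF-1 OFF and 0.227 and 0.150 in HOXA9 OFF. The OFF groups overlapped on this measure and both exceeded the controls. Cdkn1b mRNA was 0.139 and 0.162 of the summed E-type cyclin mRNA in uninduced, 0.146 and 0.145 in IPTG control, 0.218 and 0.214 in CAF-1 OFF and 0.622 and 0.734 in HOXA9 OFF. The 2 inhibitors together, divided by the D-type cyclins, gave 0.274 and 0.273 in uninduced, 0.283 and 0.280 in IPTG control, 0.284 and 0.286 in HOXA9 OFF, and 0.372 and 0.449 in CAF-1 OFF. On that last ratio the HOXA9 OFF libraries lay just above the controls, with both the inhibitor and the cyclin sum above theirs. With union lengths the ratio was 0.288 in both HOXA9 OFF libraries, against 0.262 to 0.273 in the control libraries.

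The E-type cyclins moved less. Ccne1 stood at 44.0 and 37.8 CPM in uninduced, 44.7 and 44.2 in IPTG control, 51.6 and 57.8 in CAF-1 OFF and 34.1 and 22.7 in HOXA9 OFF. The groups did not overlap, and neither did 68.3% of all tested genes between CAF-1 OFF and uninduced, or 78.1% between HOXA9 OFF and uninduced. The log2 differences of Ccne1, 0.42 in CAF-1 OFF (95% confidence interval -0.02 to 0.86, FDR = 0.155) and -0.53 in HOXA9 OFF (FDR = 0.0469, 1.44-fold), did not meet both criteria. Without HOXA9 OFF replicate 1, Ccne1 was called lower in HOXA9 OFF (-0.85, FDR = 0.0029). Ccne2 stood at 56.7 and 49.97 CPM in uninduced, 58.1 and 46.5 in IPTG control, 72.9 and 68.5 in CAF-1 OFF and 39.6 and 21.8 in HOXA9 OFF. Ccne2 was called lower in HOXA9 OFF (log2 -0.80, SE 0.26, FDR = 0.0289) and not called in CAF-1 OFF (log2 0.41, 95% confidence interval -0.18 to 0.99, FDR = 0.283). The HOXA9 OFF call of Ccne2 was lost without uninduced replicate 1 (-0.71, FDR = 0.126), uninduced replicate 2 (-0.89, FDR = 0.0654) or HOXA9 OFF replicate 2 (-0.43, FDR = 0.0673).

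Rb1, which encodes the protein that these kinases phosphorylate, stood at 44.3 and 48.3 CPM in uninduced, 52.9 and 42.1 in IPTG control, 67.2 and 79.9 in CAF-1 OFF and 120.7 and 117 in HOXA9 OFF. The libraries formed the same 3 steps as Cdkn1b. Its log2 fold change was 0.67 in CAF-1 OFF (SE 0.14, FDR = 0.0193) and 1.36 in HOXA9 OFF (SE 0.14, FDR = 0.000149). The exons of Rb1 share 408 bases with Lpar6 and 488 with Rcbtb2 on the other strand, out of 6015, and the sources do not say whether counting used the strand. In HOXA9 OFF both neighbours were higher too, Lpar6 by a log2 fold change of 3.56 and Rcbtb2 by 1.68, while in CAF-1 OFF neither was called (0.36 and 0.17).

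Across the 10 genes, 4 were called higher in CAF-1 OFF against uninduced, where 10.5% of all tested genes were, and 1 lower, against 3.5% of all genes. In HOXA9 OFF 3 were called higher, against 25.2% of all genes, and 5 lower, against 22.1%. The median log2 fold change of the 10 was 0.42 in CAF-1 OFF and -0.66 in HOXA9 OFF, beside 0.01 over all tested genes in each. Both comparisons use the same 2 uninduced libraries. The 6 calls in HOXA9 OFF for Ccnd2, Ccnd3, Cdk4, Cdk6, Cdkn1b and Rb1 held when any of the 8 libraries was left out. The CAF-1 OFF calls rested on more: without uninduced replicate 1 none of the 5 passed (FDR 0.0565 to 0.12) and 157 genes were called in the whole table in place of 1836. Cdk4, Cdkn1b and Rb1 were also lost without uninduced replicate 2 (FDR 0.0536 to 0.0656), and these 3 and Ccnd3 without CAF-1 OFF replicate 2 (FDR 0.0536 to 0.147). Their directions did not change in any of these fits.

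**Figure D3:**
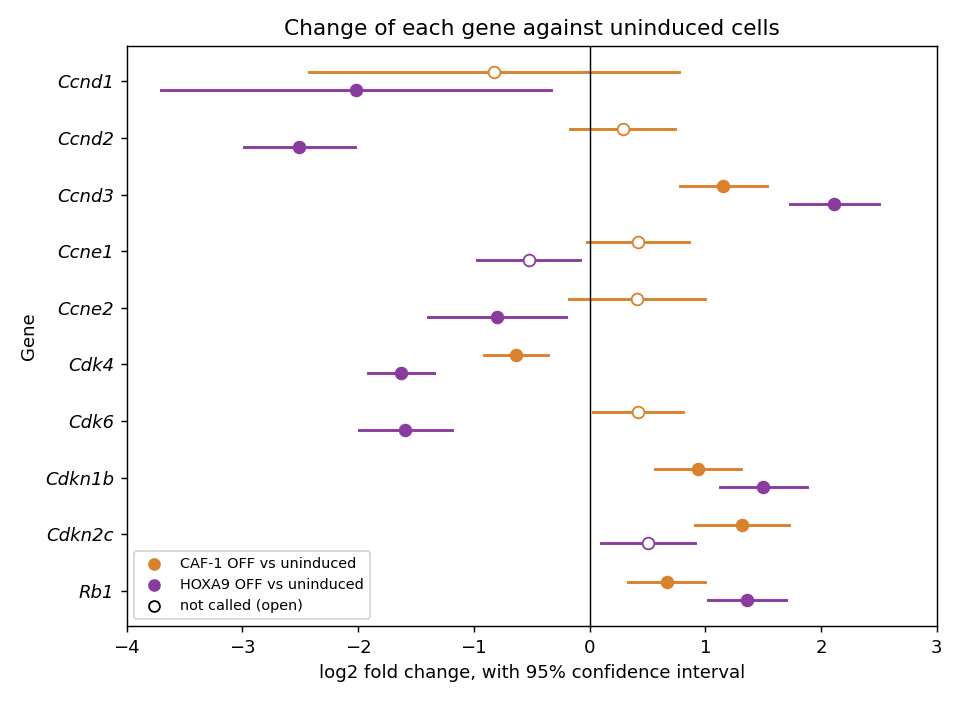
Log2 fold change against uninduced cells (horizontal axis) with its 95% confidence interval (line) for each of the 10 genes (vertical axis), in CAF-1 OFF and in HOXA9 OFF. Filled points were called at an FDR under 0.05 and at least 1.5-fold, and open points were not. Ccnd3, Cdkn1b and Rb1 lie to the right of 0 in both comparisons, Cdk4 lies to the left in both, and Ccnd2 and Cdk6 lie left of 0 only in HOXA9 OFF.

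IPTG control was also compared with uninduced cells, from which it differed by 48 h of culture as well as by IPTG. None of the 10 genes was called, and their log2 differences ran from -0.03 for Ccne2 to 0.22 for Cdk6, with a median of 0.02. Over all tested genes 0% were called higher and 0% lower in edgeR, 100 genes had an unadjusted p under 0.05, and DESeq2 called 5, all higher and none of them a member of the list. Against IPTG control, CAF-1 OFF showed Ccnd3 (log2 1.15), Cdkn2c (1.26), Cdkn1b (0.93) and Rb1 (0.63) higher and Cdk4 (-0.61) lower, so the 4 called higher stood against 9.56% of all genes and the 1 called lower against 3.2%. These 5 calls were lost without IPTG control replicate 1 (FDR 0.0571 to 0.0686) or IPTG control replicate 2 (FDR 0.0617 to 0.148), and 4 of them without CAF-1 OFF replicate 2 (FDR 0.06 to 0.181), where Cdkn2c kept its call.

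The OFF groups were then compared with each other, which tests the differences between them directly. CAF-1 OFF cells held more Ccnd2 (log2 2.79, SE 0.21, FDR = 5.98e-05), Cdk6 (2.01, FDR = 0.000102), Ccne2 (1.21, FDR = 0.00559), Cdk4 (1.00, FDR = 0.000407), Ccne1 (0.95, FDR = 0.00458) and Cdkn2c (0.81, FDR = 0.00569) than HOXA9 OFF cells. They held less Ccnd3 (log2 -0.96, FDR = 0.0018) and Rb1 (-0.69, FDR = 0.00452). The 6 higher and 2 lower calls stand beside 22.2% and 21.4% of all tested genes. Cdkn1b was lower in CAF-1 OFF by 0.57 (FDR = 0.0181) without reaching 1.5-fold, and passed without HOXA9 OFF replicate 2 (-0.79, FDR = 0.00185). Ccnd1 was not called (1.19, 95% confidence interval -0.49 to 2.87, FDR = 0.199). Cdkn2c lost its call without CAF-1 OFF replicate 2 (0.58, FDR = 0.0414) and Rb1 without CAF-1 OFF replicate 1 (-0.58, FDR = 0.0404), both by falling under 1.5-fold.

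Ordered by level per kilobase of longest transcript, Cdk4 led in uninduced cells with 403 ± 7.54 CPM per kb (SD, n = 2), followed by Ccnd2 (55.4 ± 0.657), Cdk6 (44.7 ± 11.2) and Ccnd3 (32.6 ± 1.07), where Ccnd2 and Cdk6, and Cdk6 and Ccnd3, did not differ beyond their summed SDs. Ccne1, Cdkn2c and Ccne2 followed within each other's spread at 20.4 to 17.7, then Rb1 (9.95 ± 0.616), Cdkn1b (5.73 ± 0.0565) and Ccnd1 (2.25 ± 1.28). The order in IPTG control was the same. In CAF-1 OFF, Ccnd3 (72.7 ± 5.07) stood next to Cdk4 (259 ± 23.3), within its spread of Ccnd2 (67.5 ± 1.84), and Cdkn2c (47.2 ± 10.1) had moved above both E-type cyclins. In HOXA9 OFF, Ccnd3 (141 ± 34.5) and Cdk4 (130.1 ± 13.7) led within each other's spread, Cdkn2c (26.9 ± 4.98) and Rb1 (25.6 ± 0.523) came next, and Ccnd2 (9.74 ± 3.29) lay at the low end of a run with Cdkn1b, Cdk6, Ccne1 and Ccne2 in which no neighbours differed beyond their summed SDs. Ccnd1 was last in every group. The order was not repeated with union lengths, which are 3249 against 2053 bases for Cdk4 and 2662 against 2000 for Ccne1. The places of Cdkn2c beside the E-type cyclins in uninduced cells, and of Cdk4 beside Ccnd3 in HOXA9 OFF, depend on that choice.

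The rest of the pathway was read from lists of named genes. Of 5 other CDK inhibitors, 4 were tested. In HOXA9 OFF, Cdkn2d, another INK4 protein that binds CDK4 and CDK6, was called higher (log2 1.64, FDR = 0.021) and Cdkn1a, the p53-induced p21, lower (log2 -1.04, FDR = 0.0261), and in CAF-1 OFF none was. With 4 genes tested, 1 call in each direction is near the 25.2% and 22.1% of all genes. Cdkn1a stood at 31.7 and 41.1 CPM in uninduced, 33.9 and 46.1 in IPTG control, 57.8 and 69.4 in CAF-1 OFF and 11.6 and 23.8 in HOXA9 OFF. It was therefore highest in CAF-1 OFF, where its log2 difference from uninduced was 0.81 (FDR = 0.109). Cdkn2a stood between 229 and 275 CPM in all 8 libraries and was called in neither comparison (-0.20 and -0.05). Cdkn2b was not tested, with 2 to 5 counts per library.

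Of 12 pocket proteins, E2F and DP factors, 3 were called higher and none lower in CAF-1 OFF: the activator E2f2 (log2 1.5) and the atypical repressors E2f7 (1.03) and E2f8 (0.79), where 10.5% of all tested genes were called higher and 3.5% lower. These 3 were also called higher against IPTG control. In HOXA9 OFF 2 were higher and 4 lower, against 25.2% and 22.1% of all tested genes, led by E2f2 (2.05), E2f5 (-1.53) and E2f4 (-0.92), of which E2F4 and E2F5 are the factors that partner with pocket proteins in quiescent cells. E2f2 itself stood at 26.7 and 29.1 CPM in uninduced, 25.0 and 26.9 in IPTG control, 64.4 and 93.5 in CAF-1 OFF and 122 and 108.6 in HOXA9 OFF. The 9 genes of the CDK2 arm showed no call in CAF-1 OFF and 5 lower in HOXA9 OFF, against 22.1% of all genes, among them Skp2 (-1.26) and Cks1b (-1.23), which together target CDKN1B for degradation, and Ccnh (-0.98), a part of the CDK-activating kinase. Skp2 fell from 85.3 and 73.9 CPM in uninduced to 37.3 and 29.1 in HOXA9 OFF, and stood at 76.9 and 74.7 in CAF-1 OFF. Over these 3 lists, 25 genes of 26 were tested. Their median log2 fold change was 0.01 in CAF-1 OFF (3 higher, 0 lower) and -0.38 in HOXA9 OFF (3 higher, 10 lower), beside 0.01 over all genes. The 3 called higher of 25 in CAF-1 OFF are a share near the 10.5% of all genes, and in HOXA9 OFF the 3 higher stand beside 25.2% and the 10 lower beside 22.1% of all genes. The count of 3 in CAF-1 OFF was 0 without uninduced replicate 1, 1 without uninduced replicate 2 or CAF-1 OFF replicate 2, and 5 without HOXA9 OFF replicate 1 or without HOXA9 OFF replicate 2.

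Upstream of G1, 6 genes were read. Myc, an activator of Ccnd2 and Cdk4, stood at 574 and 527 CPM in uninduced, 597 and 549 in IPTG control, 455 and 392 in CAF-1 OFF and 129.7 and 115 in HOXA9 OFF. It was called lower in HOXA9 OFF (log2 -2.17) and not in CAF-1 OFF (-0.38, FDR = 0.0624). Kit, the receptor for stem cell factor, was lower in HOXA9 OFF (-1.78), and Mycn, at 1.20 and 0.898 CPM in uninduced, had 0 counts in both HOXA9 OFF libraries, at least 6.45-fold lower against a floor of 3 counts per library. The FOXO factors, which activate Cdkn1b, were called higher for Foxo1 (log2 1.32) and Foxo3 (0.63) in CAF-1 OFF and for Foxo3 (0.72) and Foxo4 (0.92) in HOXA9 OFF. In CAF-1 OFF, Foxo4 did not move in the estimate (39.7 CPM against 39.6 in uninduced, FDR = 1), and Mycn, at 7.05 and 1.73 CPM, was not called (log2 2.06, FDR = 0.074). Of the 6 genes, 2 were thus called higher in CAF-1 OFF, beside 10.5% of all genes, and 2 higher and 3 lower in HOXA9 OFF, beside 25.2% and 22.1%.

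Downstream of G1, of 13 E2F target genes of DNA replication, none was called in CAF-1 OFF, where 3 of 13 differences were upward and the median was -0.19, and 10 were called lower in HOXA9 OFF, with a median of -0.74, where 22.1% of all tested genes were called lower. Tyms (-1.35), Mcm7 (-1.12) and Mcm2 (-1.09), which make thymidylate and form the replicative helicase, had the largest differences in HOXA9 OFF. In the direct comparison 6 of the 13 were higher in CAF-1 OFF than in HOXA9 OFF and none lower, beside 22.2% and 21.4% of all tested genes. Of 10 genes of G2 and mitosis, 1 was called higher in CAF-1 OFF, the proliferation marker Mki67 (0.65), and 5 were called lower in HOXA9 OFF, led by Ccnb1 (-0.81), Cdk1 (-0.76) and Cdc20 (-0.69), beside 10.5% of all genes called higher in CAF-1 OFF and 22.1% called lower in HOXA9 OFF. A share of 1 in 10 is thus no more than the background. The Mki67 call was not met against IPTG control (0.60, FDR = 0.0521), where none of the 10 genes was called, and Mki67 was not called in HOXA9 OFF (0.48, FDR = 0.0468, under 1.5-fold). It stood at 245 and 317 CPM in uninduced, 292 and 290.3 in IPTG control, 425 and 458 in CAF-1 OFF and 453 and 331 in HOXA9 OFF.

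**Figure D4:**
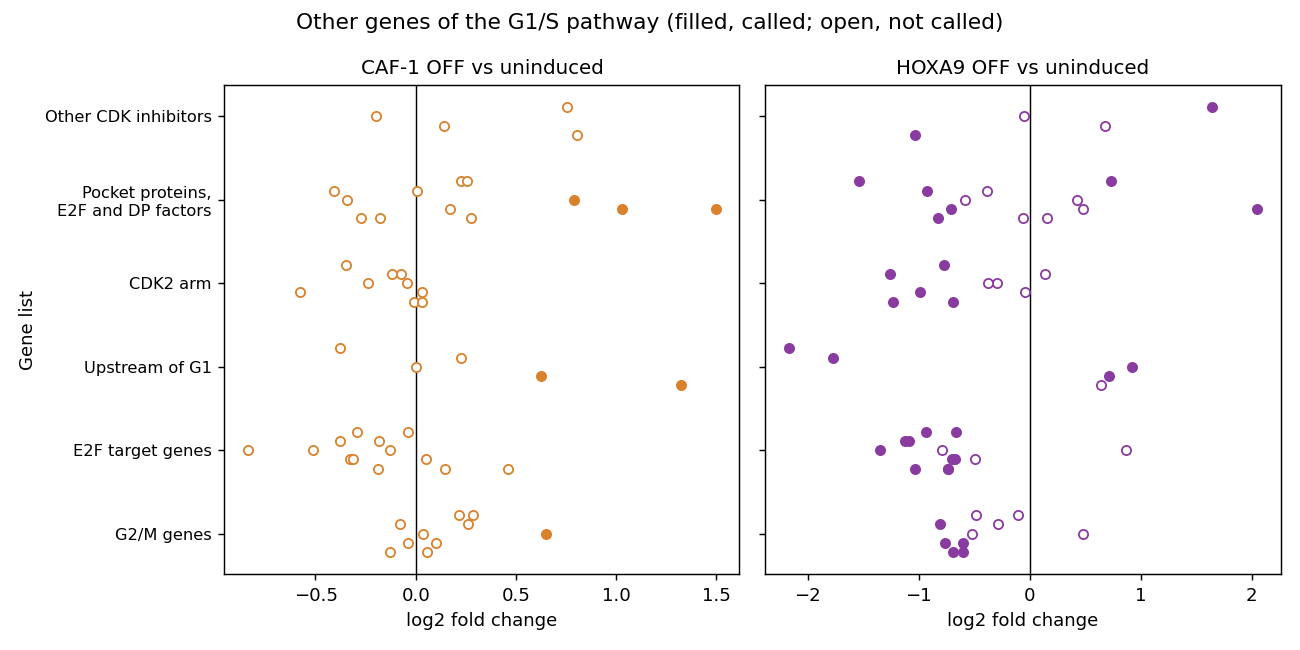
Log2 fold change against uninduced cells (horizontal axis) of the tested genes of 6 pathway lists (vertical axis), in CAF-1 OFF (left) and HOXA9 OFF (right), with a scale of its own in each panel. Each point is a gene, filled if called, spread vertically only for legibility, and Mycn is left out because it had 0 counts in HOXA9 OFF. Of the 13 E2F target genes, 0 are filled on the left and 10 on the right, all below 0.

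Genes with the most similar pattern were sought among the other 13070 tested genes, by the root mean square difference of log2 CPM over the 8 libraries after each gene was centred on its own mean. For Cdk4 these were Mrps18b (0.04) and Rad1 (0.07), the closest match found for any of the genes. For Rb1 they were Aff1 (0.06) and Gnaq (0.09), for Cdkn1b 1110018G07Rik (0.09) and Sh2b3 (0.10), and for Ccnd3 Nhsl2 and Tmem63a (both 0.11). Those nearest to Ccne2 were Dapp1 (0.11) and Rrm2 (0.11), the latter a ribonucleotide reductase subunit in the E2F target list. For Cdk6 they were Col4a6 (0.09) and Prpf40b (0.14), for Cdkn2c 9230114K14Rik (0.12) and Dio2 (0.13), for Ccnd2 Magi1 and 9930014A18Rik (both 0.13), and for Ccnd1, whose pattern was matched least well, Luzp1 and Ankrd37 (both 0.36). Among the 10 themselves, Ccne1 and Ccne2 lay nearest to each other (0.17), as did Cdkn1b and Rb1 (0.17), and the nearest to Ccnd3 was Cdkn1b (0.25). These distances rest on 8 libraries that share 4 conditions.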

How the data were processed

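RNA-seq was carried out on 8 libraries of mouse iGMPs, 2 for each of 4 groups taken from the labels. The files hold the raw counts deposited per gene, without normalization; per the study's methods, the authors used a directional NEBNext kit, STAR on mm9 and HTSeq-count. The annotation and the strand setting of the counting are not given in the sources used here. Reads outside genes (5.30% to 14.6% of uniquely aligned reads) and ambiguous reads (2.49% to 2.88%) stayed out of library sizes and tests.

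In R 4.3.3, edgeR 4.0.16 was run with filterByExpr, TMM factors of 0.894 to 1.06, and glmQLFit and glmQLFTest on all 8 libraries, with 1 mean per group and no covariate. The FDR is the Benjamini-Hochberg value over all 13080 tested genes, and a call required FDR below 0.05 together with a 1.5-fold difference. The biological coefficient of variation was 18.9%, and 2 libraries per group limit the precision. Lengths came from the longest transcript in GENCODE vM1 (mm9). The test was first tried on simulated data. Alternatives were DESeq2 1.42.0, other scalings, filters, thresholds and fits, and leaving out each library. Named genes are the 10 genes, Chaf1b, up to 3 called genes per list and comparison with the largest differences, and the 2 nearest patterns per called gene; other genes were named after their values were seen. The genes and lists were chosen with earlier results of these data known.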

Additional observations from a re-analysis of the deposited data

How the results depend on the processing

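Against uninduced cells, the count of called genes among the 10 was 5 in CAF-1 OFF and ranged from 0 to 5 when single libraries were left out; it was 2 (Ccnd3 and Cdkn2c) at an FDR under 0.01 and 2-fold. Against IPTG control it was 5, ranged from 0 to 5 without single libraries and was 2 at the stricter threshold; between CAF-1 OFF and HOXA9 OFF it was 8 and became 3. In the 25 genes of the CDK inhibitor, E2F and CDK2 lists, the CAF-1 OFF count of 3 became 5 with a replicate block, 5 without a fold threshold, 1 at the stricter threshold and 0 to 5 without single libraries, and the HOXA9 OFF count of 13 became 4 at the stricter threshold. The fewer samples or stricter threshold of these fits are part of their construction. The replicate numbers were not taken to pair the samples, since not every pair of groups shared deviations: correlations of same-numbered deviations were 0.30 to 0.48 among uninduced, IPTG control and HOXA9 OFF and -0.04 to 0.08 between CAF-1 OFF and these. The replicate block changed no call of the 10 genes. With library size alone as the scaling, the median of all genes in HOXA9 OFF against uninduced shifted to -0.18, Ccne1 was then called (-0.72), and between CAF-1 OFF and HOXA9 OFF the median shifted to 0.27 and Rb1 lost its call (-0.46); Cdk4 in CAF-1 OFF against IPTG control fell under 1.5-fold (-0.56). Over all genes that scaling moved the HOXA9 OFF calls from 3293 higher and 2886 lower to 2715 and 3701, and in the direct comparison of the OFF groups from 2898 and 2797 to 3949 and 2064. Ccne2 in HOXA9 OFF was not called when only the 2 groups compared were fitted (FDR = 0.0671; range over alternatives 0.000733 to 0.126). No difference reversed in the other 4 comparisons. In IPTG control against uninduced, where every FDR was 1, Ccnd2 changed sign at -0.0031 with DESeq2 size factors, -0.0047 with library size, -0.0050 without a filter and -0.0031 in DESeq2, and without single libraries the log2 differences ran from -0.75 to 0.81 for Ccnd1, -0.012 to 0.012 for Ccnd2, -0.034 to 0.047 for Ccnd3, -0.20 to 0.12 for Ccne2, -0.089 to 0.028 for Cdk4, -0.015 to 0.50 for Cdk6, -0.080 to 0.089 for Cdkn1b and -0.14 to 0.19 for Rb1. With 2 libraries a group, a lone remaining library was taken to vary like the other groups. Depth limits Ccnd1 most, at 27 to 276 counts.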

Other observations

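The replicates of Ccnd1 were split alike in the 2 control groups. Uninduced and IPTG control replicate 1 stood at 5.03 and 5.02 CPM and replicate 2 of each at 11.8 and 12.6 CPM. Replicate 2 was also the higher in HOXA9 OFF, at 2.68 against 1.47 CPM, whereas in CAF-1 OFF replicate 1 was, at 7.32 against 2.20 CPM. Luzp1, picked as the gene nearest to Ccnd1 in pattern, stood at 14.2 and 23.5 CPM in uninduced, 15.5 and 23.4 in IPTG control, 14.3 and 9.10 in CAF-1 OFF and 4.07 and 6.55 in HOXA9 OFF. The labels do not say what libraries with the same number share, and the study's supplement, which mentions independent sub-clones for the RNA-seq tracks, does not tie them to replicate numbers.

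Chaf1b, the target of the shRNA, was also lower in HOXA9 OFF than in uninduced cells, by a log2 fold change of -1.14 (SE 0.25, edgeR FDR = 0.00574), compared with -2.79 (SE 0.27, FDR = 0.00236) in CAF-1 OFF. Both HOXA9 OFF libraries, at 48.3 and 41.0 CPM, lay between those of CAF-1 OFF and the controls.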
